A study of Mus musculus with 6 samples.

Results

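The miR-181 family is a group of 6 related microRNA (miRNA) precursors in the mouse, encoded in 3 clusters of 2 genes: mir-181a-1 with mir-181b-1, mir-181a-2 with mir-181b-2, and mir-181c with mir-181d. They were taken by name from a table of 855 miRNA precursors measured in whole retina, where their names carry the mouse prefix (mmu-mir-181a-1 and so on), and all 6 are listed there. The retinas came from 4-week-old mice on a mixed C57BL/6J - SJL background. In 3 libraries the mice were Dicerfl/fl, iCre75+ (cKO), so that both copies of the gene for Dicer carry loxP sites and the iCre75 transgene makes Cre recombinase. In the other 3 the mice were Dicerfl/fl, iCre75- littermates (control), which carry the same floxed alleles without Cre. Each library was made from a pool of 6 retinas, the series describes the 3 per genotype as biological replicates, and the labels do not tie single mice to pools. iCre75 is driven by a rod opsin promoter, so the deletion is directed at rod photoreceptors, and the other cells of the retina keep Dicer. Levels of Dicer1 itself were not analysed here, and no value of the deleted gene checks the genotype labels.

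Dicer is the enzyme that cuts a hairpin precursor into the mature miRNA, which then guides Argonaute proteins to messenger RNAs that pair with its seed, the bases near its 5′ end. The miR-181 miRNAs are known in the mouse retina from the inner nuclear and ganglion cell layers, where amacrine and ganglion cells lie, and they are studied there for their effects on mitochondrial turnover and, in fish, on the growth of axons of amacrine and ganglion cells. Elsewhere miR-181a is best known for setting the sensitivity of the T cell receptor. The study compared retinal miRNAs with and without Dicer in rods. By that background, the cells in which the family is chiefly known were not the ones targeted in the cKO mice. Which cells held the family was not measured here, since whole retina was sequenced.

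The mature sequences are given here because they decide which precursors the sequencing reads could tell apart. They are those of RefSeq for GRCm38.p6, written 5′ to 3′ with the seed, bases 2 to 8, in capitals, and the 5p arms are the arms for which the family is named.
miR-181a-5p: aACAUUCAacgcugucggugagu
miR-181b-5p: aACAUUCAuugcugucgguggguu
miR-181c-5p: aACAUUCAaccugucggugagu
miR-181d-5p: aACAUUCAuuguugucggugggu

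All 4 carry the same seed, and no other mature mouse miRNA in the RefSeq table has it. The sequence that pairs with it is UGAAUGU. Positions below are counted from 1 at the 5′ end of the first miRNA named. From miR-181a-5p to miR-181b-5p the bases differ by A9U, C10U and A21G. From miR-181b-5p to miR-181d-5p the only substitution is C12U. miR-181c-5p equals miR-181a-5p without its G at position 11, a gap that shifts all later bases. The identical miR-181a-5p is cut from mir-181a-1 and from mir-181a-2, and the identical miR-181b-5p from mir-181b-1 and from mir-181b-2.

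The precursors are told apart by their loops and by the 3p arms. The 4 hairpins of the duplicated pairs are shown with both mature arms in capitals.
mir-181a-1, chr1:137966455-137966541 (+): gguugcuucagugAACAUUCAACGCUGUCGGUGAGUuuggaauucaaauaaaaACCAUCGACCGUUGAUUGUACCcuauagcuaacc
mir-181a-2, chr2:38852735-38852810 (+): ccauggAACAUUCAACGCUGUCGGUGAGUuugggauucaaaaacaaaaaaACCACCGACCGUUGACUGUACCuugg
mir-181b-1, chr1:137966639-137966718 (+): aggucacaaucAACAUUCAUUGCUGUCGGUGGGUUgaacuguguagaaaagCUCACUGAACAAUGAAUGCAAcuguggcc
mir-181b-2, chr2:38853830-38853918 (+): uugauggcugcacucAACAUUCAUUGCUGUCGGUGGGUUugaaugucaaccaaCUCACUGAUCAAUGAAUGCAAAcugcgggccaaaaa

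The 3p arms of mir-181a-1 and mir-181a-2 differ by U5C and U16C, and those of mir-181b-1 and mir-181b-2 by A9U and 1 end base. Coordinates are of GRCm38, whereas the authors used mm9, so they place the genes and were not used to read the table. In the GENCODE annotation mir-181a-1 and mir-181b-1 lie 97 bases apart on chromosome 1 in an intron of the non-coding transcript Gm4258 and overlap the non-coding gene A430106G13Rik. On chromosome 2, mir-181a-2 and mir-181b-2 lie 1019 bases apart, in an intron of Nr6a1, the gene for an orphan nuclear receptor, on the strand opposite to it. On chromosome 8, mir-181c (chr8:84178873-84178961) and mir-181d (chr8:84178716-84178787) lie 85 bases apart on the minus strand, in an intron of Nanos3, a gene of the germ line.

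The table gives RPKM, the reads of a precursor scaled to its length and to the number of reads in the library. Multiplied by the length of the precursor, its values came out as whole multiples of 1 read, which returned library totals of 5480940 to 6925715 reads in cKO and 6894116 to 7478237 reads in control retina. Reads summed over all precursors exceeded these totals 1.77- to 1.86-fold in cKO and 1.55- to 1.56-fold in control libraries, so some reads stand at more than 1 precursor. In the bulk retina, fewer cells of a type and less RNA per cell cannot be told apart, and each RPKM is a part of one library's reads, so no value here is a level per retina.

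The reads showed which members were separate measurements. In mir-181a-2 the read counts were 2262338, 2382257 and 1939416 in cKO 1 to 3, against 1572547, 1488050 and 1408988 in control 1 to 3. In mir-181a-1 they were 2262873, 2382435 and 1939458 in cKO and 1573002, 1488376 and 1409126 in control libraries. Both precursors of miR-181a thus held nearly the same reads: mir-181a-1 had 535, 178 and 42 more than mir-181a-2 in cKO 1 to 3, and 455, 326 and 138 more in control 1 to 3. The reads at mir-181a-2 were at least 99.97% of those at mir-181a-1 in every library. The RPKM of mir-181a-2 was 1.14 times that of mir-181a-1 in every library, since RPKM divides by length and the hairpin of mir-181a-2 has 76 bases and that of mir-181a-1 has 87.

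The same held for miR-181b. The precursor mir-181b-2 had 191, 201 and 145 more reads than mir-181b-1 in cKO 1 to 3, and 183, 116 and 176 more in control 1 to 3, on counts of 110663 to 195892 reads at mir-181b-1. The values therefore cannot say which of the paired genes on chromosomes 1 and 2 made the miRNA, in either genotype, and the members of each pair are 1 measurement printed under 2 names. The table does not split arms, so 5p and 3p reads were not told apart.

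Between mir-181d and mir-181b, whose 5p arms differ by a single base, the read counts were unequal but close. Read counts at mir-181d were 77.9%, 73.7% and 75.4% of those at mir-181b-1 in cKO 1 to 3, and 81.6%, 74.4% and 76.3% in control 1 to 3. For scale, mir-10b stood at 97.7% to 99.2% of the reads of mir-10a in cKO and at 98.05% or more in control libraries, on 131 to 304 reads at mir-10a in cKO and 154 to 190 in control libraries, although their 5p arms differ by U12A. The precursor mir-211 stood at 96.7% to 97.5% of mir-204 in cKO and 95.8% to 97.6% in control libraries, with 5p arms that differ by A17U. Counts were close in those pairs, which were chosen after their values were seen. Whether the same reads stood at both precursors of such a pair was not tested. How many of the mir-181d reads, if any, are also counted at mir-181b was not tested either. The 5p arm of mir-181c differs from the other 3 at 7 or more bases in any ungapped alignment shifted by up to 3 bases.

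The family was among the most abundant of the retina in both genotypes, and its precursors took a larger part of the library in cKO. Reads at mir-181a-2 made up 32.7%, 34.5% and 35.4% of the library total in cKO 1 to 3, against 21.0%, 21.6% and 20.0% in control 1 to 3. The groups did not overlap, with means of 34.2% ± 1.38 in cKO and 20.9% ± 0.829 in control retina (SD, n = 3 each). A two-sided exact permutation test gave p = 0.1, the smallest value possible with 3 libraries against 3. By RPKM, all cKO libraries lay above all control libraries in 71.6% of the 461 precursors whose mean reached 10 RPKM. As a share of summed RPKM, in which all precursors count per length, mir-181a-2 held 19.96% ± 0.360 in cKO and 14.1% ± 0.569 in control retina, a difference of 5.87 instead of 13.3 percentage points. Summed RPKM also counts a read at every precursor where it stands, so reads of miR-181a enter it under both precursors. Reads summed over all precursors were 1.77 to 1.86 times the library total in cKO and 1.55 to 1.56 times in control libraries. By RPKM mir-181a-2 ranked second of the 855 precursors in every control library and in cKO 1, behind mir-182, and first in cKO 2 and cKO 3.

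Counted once each, miR-181a, miR-181b, miR-181c and miR-181d (read counts at mir-181a-1, mir-181b-1, mir-181c and mir-181d) came to 39.96% ± 2.09 of library reads in cKO and 24.4% ± 0.806 in control retina (SD, n = 3 each). Left without mir-181d, whose reads may be counted at mir-181b too, the sum was 38.0% ± 1.81 in cKO and 23.1% ± 0.829 in control retina. Adding all 6 rows of the table would have given 76.8% and 46.8%, since reads of the paired precursors enter that sum once per row. Wilson 95% intervals of each precursor's share reached at most 0.040 percentage points to either side, and describe the counting of reads alone, because amplified copies of a molecule were not told apart.

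The precursors of miR-181a stood at the highest RPKM of the family. The level of mmu-mir-181a-2 was 4298127, 4533424 and 4655886 RPKM in cKO 1 to 3, against 2766883, 2840046 and 2625483 RPKM in control 1 to 3. The level of mmu-mir-181a-1 was 3755574, 3960529 and 4067299 RPKM in cKO, against 2417747, 2481503 and 2293750 RPKM in control libraries. Every cKO library lay above every control library in both, as in 71.6% of the 461 precursors, and the spread within a genotype was narrow.

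The precursors of miR-181b, which differs from miR-181a outside the seed, were well below: the RPKM ratio of mir-181a-1 to mir-181b-1 was 10.9 to 13.8 in cKO and 10.9 to 13.1 in control libraries. The level of mmu-mir-181b-1 was 272564, 354143 and 371699 RPKM in cKO 1 to 3, against 184975, 209017 and 209990 RPKM in control 1 to 3. That of mmu-mir-181b-2 was 245311, 318657 and 334409 RPKM in cKO, against 166545, 188070 and 189035 RPKM in control libraries. Every cKO library again lay above every control library, as in 71.6% of the 461 precursors, and replicate 1 was the lowest library of each genotype.

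In the third cluster mmu-mir-181d, the closest relative of mir-181b, was the more abundant. Its level was 235972, 290111 and 311255 RPKM in cKO 1 to 3, against 167681, 172742 and 177961 RPKM in control 1 to 3. The level of mmu-mir-181c was 124060, 127121 and 125721 RPKM in cKO, against 86626, 68573 and 67348 RPKM in control libraries. In both precursors every cKO library lay above every control library, as in 71.6% of the 461 precursors. The cKO libraries were close together in mir-181c (SD 1533 RPKM) and the control libraries were spread by control 1 (SD 10794 RPKM), whereas in mir-181d the spread was larger in cKO (SD 38828 RPKM) than in control retina (SD 5140 RPKM).

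**Figure D1:**
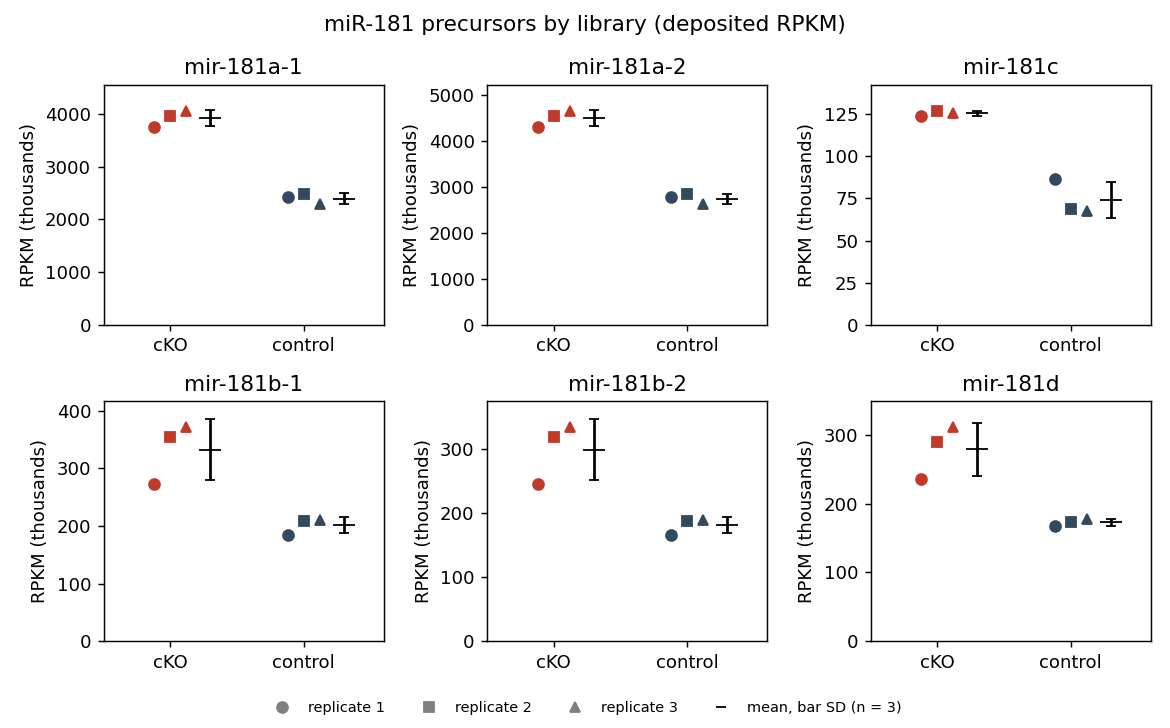
RPKM, divided as each axis states (vertical axes, from 0, a scale per panel) of the 6 miR-181 precursors in 3 cKO (red) and 3 control (blue) libraries, with symbols for replicates 1 to 3 and the mean with SD beside them. The cKO libraries lie above the control libraries in all 6 panels, as in 71.6% of the 461 precursors whose mean reached 10 RPKM. In mir-181b-1, mir-181b-2 and mir-181d cKO 1 is low, and in mir-181c control 1 is high.

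In order of mean RPKM the members ran mir-181a-2, mir-181a-1, mir-181b-1, mir-181b-2, mir-181d and mir-181c in both genotypes. The step from mir-181a-2 to mir-181a-1 was wider than the SDs in both genotypes, on nearly equal reads and unequal hairpin lengths. Closer together, mir-181b-1, mir-181b-2 and mir-181d averaged 332802 ± 52901, 299459 ± 47550 and 279113 ± 38828 RPKM over the 3 cKO libraries (SD), each within 1 SD of the next. Over the 3 control libraries the same 3 precursors averaged 201327 ± 14170, 181216 ± 12715 and 172795 ± 5140 RPKM (SD), where mir-181b-1 and mir-181b-2 lay 1 to 2 SDs apart. The spread between libraries does not measure the step between those 2. Within every library the RPKM of mir-181b-2 was 0.90 times that of mir-181b-1, on nearly equal reads and hairpins of 89 and 80 bases. The steps between mir-181a-1 and mir-181b-1 and between mir-181d and mir-181c were wider than the spread in both genotypes.

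All 6 precursors rose in cKO retina on the values as deposited, by nearly the same factor. Differences were tested with limma on log2(RPKM + 1) over the 461 precursors whose mean reached 10 RPKM, a filter that all 6 members passed, with adjusted p below 0.05 (Benjamini-Hochberg) as the threshold. Of the tested precursors 320 rose, which is 69.4%, and 8 fell, which is 1.74%, so that 6 of 6 must be read against a rise of most of the table. For mir-181a-2 the log2 fold change was 0.71 (SE 0.080; limma adjusted p = 2.4e-04), a 1.64-fold rise. For mir-181b-1 it was 0.71 (SE 0.13; adjusted p = 0.0013), for mir-181c 0.77 (SE 0.12; adjusted p = 8.2e-04), a 1.70-fold rise, and for mir-181d 0.68 (SE 0.12; adjusted p = 0.0011). The second precursors mir-181a-1 and mir-181b-2 gave 0.71 each, as their reads were nearly the same. All 6 also rose under other settings with most of the table: 69.2% of tested precursors rose with a pseudocount of 0.1, 69.6% with one of 10, 48.8% without the filter, 76.8% with a filter of 100 RPKM, 70.1% with voom on the recovered reads, 75.7% with array weights and 68.3% with near-identical precursors summed.

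These rises lay in the middle of all precursors. The median log2 fold change of the 461 was 0.74, and the members differed from it by -0.058 (mir-181d) to 0.029 (mir-181c), less than the standard error of each. Of the tested precursors 45.3% had a lower log2 fold change than mir-181a-1, 42.1% a lower one than mir-181d and 52.3% a lower one than mir-181c. In 71.6% of tested precursors all cKO libraries lay above all control libraries, as they did in the 6 members.

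**Figure D2:**
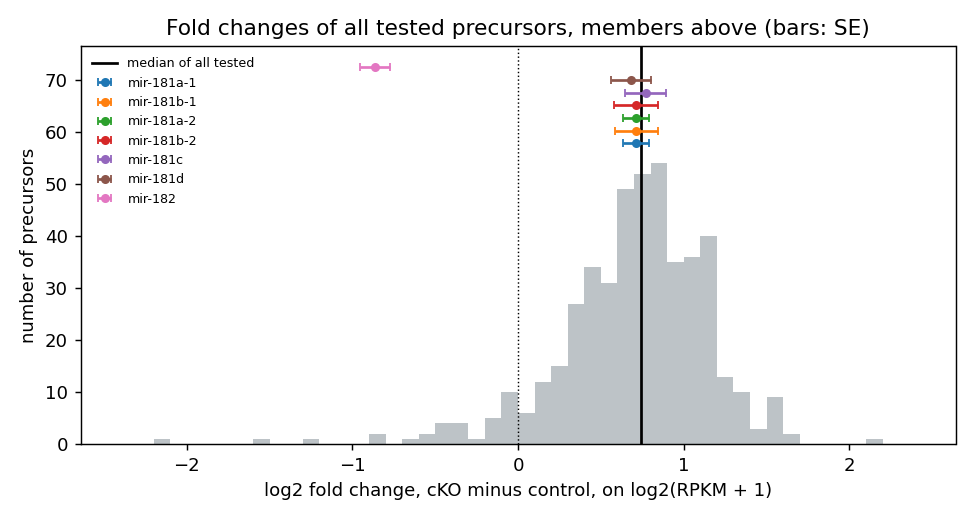
Number of precursors (vertical axis) by log2 fold change, cKO minus control, on log2(RPKM + 1) (horizontal axis) for 461 tested precursors, with the 6 miR-181 precursors and mir-182 as points with SE bars above the histogram and the median of all tested as a black line. The miR-181 points, at 0.68 to 0.77, sit at the median of 0.74, and mir-182 lies apart at -0.86.

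The size of the rise, and whether it passed the test, depended on what the libraries were scaled to. When libraries were scaled by the median of their ratios to a common profile (median-of-ratios scaling), none of the 6 passed. The log2 fold changes were then -0.020 for mir-181a-1, -0.019 for mir-181a-2, -0.017 for mir-181b-1 and for mir-181b-2, 0.038 for mir-181c and -0.049 for mir-181d (SE 0.092 to 0.14; limma adjusted p = 0.87 to 0.94), while 2.17% of tested precursors rose and 9.98% fell. With library totals that leave out the reads at mir-182, the members stood at 0.058 to 0.14 and none passed (adjusted p = 0.42 to 0.71), while 4.34% of tested precursors rose and 7.81% fell. With totals without the 10 most abundant precursors, 2 of which are the miR-181a precursors themselves, they stood at 0.17 to 0.26 and none passed (adjusted p = 0.073 to 0.19), while 12.4% rose and 6.29% fell. Those totals were sums of RPKM over the other precursors, whereas the totals without mir-182 were of reads.

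Under these 3 scalings the median of all tested precursors was 0.018, 0.12 and 0.23, and the members differed from it by -0.067 to 0.024. Quantile normalization, which replaces each value by that of its rank, gave 0.52 for mir-181a-2 and 0.11 for mir-181a-1, although their reads are nearly the same, and mir-181d stood at -0.012. None of the 6 passed (adjusted p = 0.14 to 0.94), while 2.6% of tested precursors rose and 6.29% fell. The ranks of mir-181a-2 and mir-181a-1 were neighbours in every library, at 2 and 3 in cKO 1, 1 and 2 in cKO 2 and 3, and 2 and 3 in the control libraries.

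**Figure D3:**
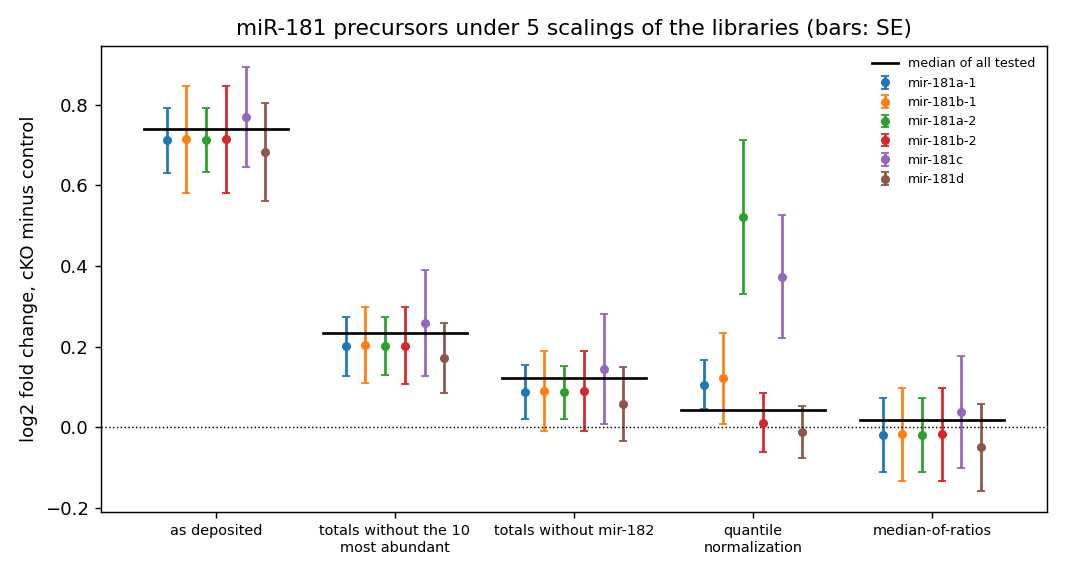
Log2 fold change, cKO minus control, with SE bars (vertical axis) of the 6 miR-181 precursors under 5 scalings of the libraries (horizontal axis), with the median of all 461 tested precursors as a black line for each. The members follow the median from 0.74 as deposited to 0.018 with median-of-ratios scaling, except under quantile normalization. There mir-181a-2 and mir-181c lie farthest above it, and mir-181a-1 and mir-181b-1 lie above it by less.

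The most abundant precursor of control retina is mir-182, of the sensory miR-183 cluster that is known to be abundant in photoreceptors. Reads at mir-182 made up 33.8%, 29.0% and 27.7% of the total in cKO 1 to 3, against 57.4%, 53.6% and 53.2% in control 1 to 3. The RPKM ratio of mir-181a-2 to mir-182, which does not depend on the total, was 0.953, 1.17 and 1.26 in cKO libraries, against 0.361, 0.398 and 0.370 in control libraries. Its groups did not overlap, and the mean log2 ratio was 0.16 ± 0.21 in cKO and -1.41 ± 0.071 in control retina (SD, n = 3 each). Whether miR-181 gained or mir-182 lost per retina cannot be told from these ratios. A shift of this size against mir-182 was also not particular to miR-181. On the deposited values the log2 fold change was -0.86 for mir-182 and 0.71 for mir-181a-2, where the median of all tested precursors was 0.74.

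**Figure D4:**
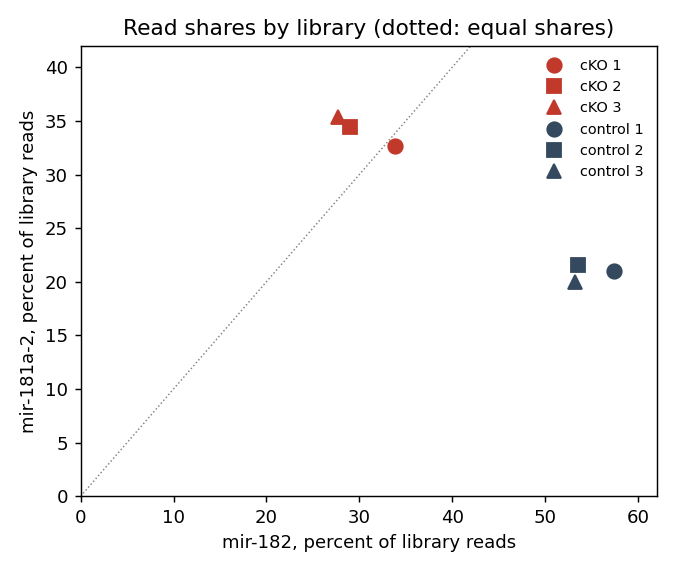
Share of library reads of mir-181a-2 (vertical axis, percent) against that of mir-182 (horizontal axis, percent) in the 3 cKO (red) and 3 control (blue) libraries, with a dotted line where both shares are equal. The control libraries lie at 53.2% to 57.4% of mir-182 and 20.0% to 21.6% of mir-181a-2, and 2 of the 3 cKO libraries lie above the line.

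Within the family the proportions were close in both genotypes. Of the reads at mir-181a-1, mir-181b-1, mir-181c and mir-181d combined, mir-181a-1 held 85.5% ± 1.06 in cKO and 85.6% ± 0.614 in control retina (SD, n = 3 each). The part of mir-181b-1 was 6.64% ± 0.736 in cKO and 6.61% ± 0.552 in control retina, that of mir-181c 2.80% ± 0.125 in cKO and 2.71% ± 0.385 in control retina, and that of mir-181d 5.01% ± 0.447 in cKO and 5.11% ± 0.293 in control retina. All 4 parts overlapped between genotypes, and each difference of means was smaller than the SD within either genotype.

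Ratios inside a library were also close between genotypes. The log2 RPKM ratio of mir-181a-1 to mir-181b-1 averaged 3.57 ± 0.18 in cKO and 3.58 ± 0.13 in control retina (SD, n = 3 each). That of mir-181a-2 to mir-181b-2, which rests on nearly the same reads and other hairpin lengths and is no second measurement, averaged 3.92 ± 0.18 in cKO and 3.92 ± 0.13 in control retina. The log2 RPKM ratio of mir-181c to mir-181d averaged -1.14 ± 0.19 in cKO and -1.23 ± 0.24 in control retina. The groups overlapped in every one of these ratios, and no test was run on them.

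The libraries numbered 1 were the highest of their genotype in these ratios. The log2 ratio of mir-181c to mir-181d was -0.93 in cKO 1, against -1.19 and -1.31 in cKO 2 and 3. In control retina it was -0.95 in control 1, against -1.33 and -1.40 in control 2 and 3. The log2 ratio of mir-181a-1 to mir-181b-1 was likewise highest in replicate 1, at 3.78 in cKO 1 against 3.48 and 3.45 in cKO 2 and 3, and at 3.71 in control 1 against 3.57 and 3.45 in control 2 and 3. What the libraries numbered 1 share is not given in the labels and was not tested. Without cKO 1 the log2 fold change of mir-181b-1 was 0.85 and without control 1 that of mir-181c was 0.89, both with adjusted p below the threshold.

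**Figure D5:**
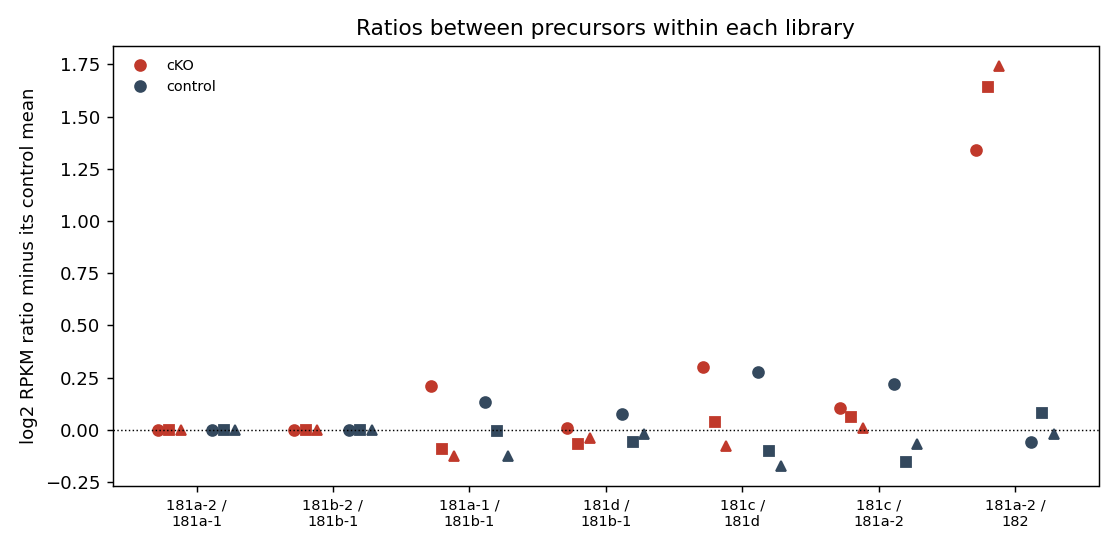
Log2 RPKM ratio between named precursors within each library, minus its mean over the control libraries (vertical axis), for 7 pairs (horizontal axis), with cKO libraries in red and control libraries in blue and symbols for replicates 1 to 3 (circle, square, triangle). The ratios inside the miR-181 family overlap between genotypes, with replicate 1 highest in several, and the ratio of mir-181a-2 to mir-182 lies above every control library in all 3 cKO libraries.

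Other miRNAs of the inner retina and of Müller glia, its main glial cell, were compared by a list of 16 precursors without miR-181: the mir-9, mir-125b, mir-99a and mir-100, mir-135a, mir-7 and mir-29 precursors. Of the 16, 12 rose, 0 fell and 4 did not pass (limma, adjusted p below 0.05), where 69.4% of all tested precursors rose and 1.74% fell. Their median log2 fold change was 0.71, beside 0.74 over all tested precursors. Gene copies and close relatives enter this list as rows of their own. The 3 copies of mir-9 stood at 0.72 each, and mir-99a and mir-100 at 1.06 each. The count and the median therefore rest on fewer separate measurements than 16. The most abundant was mir-9-2, a copy of the neural progenitor miRNA miR-9, at 102921 ± 4699 RPKM in cKO and 62897 ± 9781 RPKM in control retina (SD, n = 3 each; log2 fold change 0.72, SE 0.13; adjusted p = 0.0011). The 4 that did not pass were mir-29a, mir-29b-1, mir-29b-2 and mir-29c, at 0.42 to 0.50 (adjusted p = 0.068 to 0.11). With median-of-ratios scaling 0 of the 16 rose and 0 fell, where 2.17% of all tested precursors rose and 9.98% fell.

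Photoreceptor-rich and pan-neuronal precursors were given by separate lists, to be read against 69.4% of all tested precursors that rose and 1.74% that fell on the deposited values. Of the 3 precursors of the miR-183 cluster 0 rose, mir-182 and mir-96 fell, at log2 fold changes of -0.86 and -0.49 (limma adjusted p = 2.4e-04 and 0.048). The third, mir-183, stood at -0.11 (adjusted p = 0.68). The 3 copies of mir-124, a miRNA of neurons throughout the retina, did not pass, and the most abundant, mir-124-3, stood at -0.071 (adjusted p = 0.68). All 6 of these fell once median-of-ratios scaling was used, where 9.98% of all tested precursors fell. The 3 copies of mir-124 then stood at -0.80 each, so the 6 rows are fewer than 6 separate measurements. The difference between these lists and miR-181 was not tested.

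Markers of other tissues and cells were present in every library. The summed RPKM of the pigment epithelium precursors mir-204 and mir-211 was 1197357 to 1475670 in cKO and 655315 to 758334 in control libraries. As their read counts were nearly equal, this sum may count many reads at both. The summed RPKM of the red cell precursors was 26637 to 30983 in cKO and 16528 to 19313 in control libraries. That of the vascular precursors was 41036 to 54676 in cKO and 18667 to 34997 in control libraries. The lens and cornea precursors mir-184 and mir-31 summed to 25331 to 63265 RPKM in cKO and 2398 to 54284 RPKM in control libraries. The muscle precursors summed to 938 to 1466 RPKM in cKO and 557 to 970 RPKM in control libraries. These sums must be read against the whole table, where 69.4% of tested precursors rose on the deposited values. In 71.6% of tested precursors all cKO libraries lay above all control libraries. With median-of-ratios scaling 0 of 2 pigment epithelium, 0 of 2 red cell and 1 of 3 vascular precursors rose, where 2.17% of all tested precursors rose. None of the listed markers was at 0 in every library, and their part in the miR-181 values was not tested.

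Profiles most like that of mir-181a-2 over the 6 libraries were sought among 300 precursors whose mean reached 100 RPKM, by the root-mean-square difference between log2(RPKM + 1) values centred on their own mean. The closest were mir-3068 at 0.056, mir-486 and mir-3107 at 0.064, mir-15a at 0.067 and mir-103-1 at 0.076, where the median candidate was at 0.22. Other members of the family were no closer except mir-181a-1, with mir-181d at 0.10, mir-181c at 0.12 and mir-181b-1 at 0.13. For mir-181c the closest were the 3 copies of mir-9, at 0.052 each, mir-15b at 0.054 and mir-25 at 0.076, with the median candidate at 0.27. Family members lay farther from mir-181c, with mir-181a-2 at 0.12, its cluster partner mir-181d at 0.18 and mir-181b-1 at 0.22. The 3 copies of mir-9 had log2 fold changes of 0.72 each, and mir-486 and mir-3107 of 0.73 each, so these places may repeat a measurement. In mir-9-2, mir-15b and mir-25 the log2 fold changes were 0.72, 0.70 and 0.67. All libraries share a single scaling and 2 genotypes, which shape each profile, so these distances are a description and no test was run.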

How the data were processed

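Small RNA libraries of 3 cKO and 3 control retina pools were compared. The authors deposited RPKM values per miRNA precursor. Per the submitters' processing notes Bowtie and mm9 were used; the Bowtie version, the annotation and the handling of reads that fit several places were not given in the sources used here. Precursor lengths came from GENCODE M21 by name for 811 of 855 precursors and were inferred for 40, as the shortest length that gave whole reads. RPKM times length was a whole number of reads for 100.0% of 4866 values (tolerance 0.01 reads). Library totals of 5480940 to 7478237 reads follow from these steps. Libraries of 1 genotype differed beyond counting noise (chi-square per degree of freedom 29.3 or more), so none is a copy of another.

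Groups and replicate numbers came from the labels' descriptions, and columns were matched to samples by title. Differences (cKO minus control, two-sided) were tested by limma 3.58.1, run under R 4.3.3 with a trended prior, over the 461 precursors whose mean reached 10 RPKM; no scaling was added. The scale was log2(RPKM + 1), on which low precursors change by too little. The fit was tested on simulated data. These had known library totals and as many rises as falls, so they do not bear on the choice of scaling. Intervals and permutation tests used scipy 1.17.1. Named were the 6 members, the most abundant or not-passing members of the fixed lists, and the 5 closest profiles of mir-181a-2 and of mir-181c. The comparisons with mir-10 and mir-204 and their relatives were chosen after their values were seen. Members and lists were chosen with earlier results of these data known. RefSeq gave 5 of 6 hairpins and all mature arms; the hairpin of mir-181c is named only. Alternatives covered the pseudocount, filter, scaling, weights, whole reads with voom, summed copies, each library left out and a replicate block.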

Additional observations from a re-analysis of the deposited data

How the results depend on the processing

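The rise of all 6 members held with a pseudocount of 0.1 or 10, no filter, a filter of 100 RPKM, array weights, summed near-identical precursors and limma voom on recovered reads. Of all tested precursors 48.8% to 76.8% rose under these settings. The rise of the members depended on the scaling of the libraries. With median-of-ratios scaling, with or without a replicate block, log2 fold changes were -0.020 (mir-181a-1), -0.019 (mir-181a-2), -0.017 (mir-181b-1 and mir-181b-2), 0.038 (mir-181c) and -0.049 (mir-181d). With quantile normalization they were 0.11 (mir-181a-1), 0.52 (mir-181a-2), 0.12 (mir-181b-1), 0.012 (mir-181b-2), 0.37 (mir-181c) and -0.012 (mir-181d). With totals without mir-182 they were 0.087 for both miR-181a precursors, 0.090 (mir-181b-1), 0.089 (mir-181b-2), 0.14 (mir-181c) and 0.058 (mir-181d). With totals without the 10 most abundant they were 0.20 for the miR-181a and miR-181b precursors, 0.26 (mir-181c) and 0.17 (mir-181d).

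Over the whole table, where 320 rose and 8 fell, the counts were 10 and 46 with median-of-ratios scaling, 12 and 29 with quantile normalization, 20 and 36 with totals without mir-182, and 57 and 29 with totals without the 10 most abundant. The number that fell was 4 with a filter of 100 RPKM, where fewer precursors were tested, and 14 with array weights; the cause with array weights was not tested.

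Replicate numbers do not pair the samples by the labels, and deviations of same-numbered libraries correlated at 0.19, 0.26 and 0.0093; control 3 did not correlate best with its own number. With the replicate number as a block 338 rose and 10 fell, and with the block and median-of-ratios scaling 16 rose and 46 fell. Leaving out each library gave 252 to 322 that rose and 4 to 12 that fell: 4 without control 2 or control 3, 5 without cKO 2 or cKO 3, and 12 without control 1. Over these 6 fits the log2 fold changes were 0.68 to 0.74 for the miR-181a, 0.63 to 0.85 for the miR-181b precursors, 0.70 to 0.89 for mir-181c and 0.60 to 0.80 for mir-181d, and each passed. The difference in share of mir-181a-2 was 5.87 percentage points of summed RPKM, against 13.3 of library reads, and 12.7 to 14.1 when each library was left out. Differences of the log2 ratios within the family changed sign with the library left out: -0.11 to 0.064 for mir-181a-1 over mir-181b-1, -0.020 to 0.23 for mir-181c over mir-181d, -0.019 to 0.17 for mir-181c over mir-181a-2 and -0.060 to 0.0063 for mir-181d over mir-181b-1. Leaving out libraries for shares and ratios was chosen after seeing the data. Read counts of the members, 42075 or more in each library, leave counting error small beside the spread between libraries.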
